A study of Mus musculus with 6 samples.

Results

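The genes described here build and run the contractile apparatus of skeletal muscle. They are the 41 symbols of a list of sarcomere, excitation-contraction and muscle energy genes, found by exact symbol among the 44788 rows of the bulk RNA-seq count table. The list was chosen with earlier results of these data known, so comparisons of its members with all genes are descriptive. All 41 were present and all 41 passed the filter on low counts, which kept 14550 genes. The tissue was tail tendon of C57BL/6 mice, 3 wild-type (WT) and 3 Mkx-/- libraries, aged 3 weeks by the labels, while the study's text gives a slightly older age. Mkx-/- mice lack the tendon transcription factor Mohawk and form ectopic bone in their tendons. No other allele, Cre driver or treatment is named for either genotype, and the sources used here do not say whether a library came from 1 mouse or from several. The p-values below therefore measure only the spread between these samples.

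Skeletal muscle contracts when myosin heads on the thick filament pull on actin in the thin filament. An action potential is sensed by the voltage sensor of the triad, and calcium leaves the sarcoplasmic reticulum through the ryanodine receptor. Troponin then uncovers the myosin sites on the thin filament. Several proteins of this machine exist as paralogs used by fast fibres, by slow fibres or by developing fibres, so the paralog in use marks the fibre type. Tendon cells are fibroblasts that make collagen and do not assemble sarcomeres.

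Control of these genes in muscle is known to run through short DNA elements near their starts, among them the E-box bound by MyoD family factors, the MEF2 motif and the CArG box bound by serum response factor. Promoter sequence of 250 bases upstream of each transcription start was taken from RefSeq (GRCm38.p6), where 31 of the 41 genes matched. The E-box, CANNTG, was found on either strand in 27 of the 31 and in 66.2% of all 32851 promoters of the same length. Its form CAGCTG, which is counted among the E-boxes, was found in 14 of 31 and in 13% of all. The MEF2 motif was found in 7 of 31 (*Myh1*, *Myh4*, *Myh8*, *Pgam2*, *Pvalb*, *Ttn* and *Xirp2*) and in 2.92% of all. The CArG box was found in 4 of 31 (*Acta1*, *Ldb3*, *Myh4* and *Myom1*) and in 1.47% of all. A gene with several starts was counted once if any of its promoters held the motif, so the shares of genes and of promoters are not on the same base. A match describes letters in this window and shows no binding. Below are 4 promoters, each 5′ to 3′ on the strand of the gene, with E-boxes, MEF2 motifs and CArG boxes in capitals. *Acta1* and *Pgam2* are shown as the member with the highest level in Mkx-/- tendons and the one with the largest change, and *Myh4* and *Myh2* as fast myosin genes of one cluster whose library orders differed.
*Acta1*, chr8:123894776-123895025, minus strand: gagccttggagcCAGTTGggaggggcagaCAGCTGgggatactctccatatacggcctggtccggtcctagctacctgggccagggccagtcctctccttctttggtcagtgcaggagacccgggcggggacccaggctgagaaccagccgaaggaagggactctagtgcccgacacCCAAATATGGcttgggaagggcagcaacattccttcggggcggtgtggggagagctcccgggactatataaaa
*Pgam2*, chr11:5803797-5804046, minus strand: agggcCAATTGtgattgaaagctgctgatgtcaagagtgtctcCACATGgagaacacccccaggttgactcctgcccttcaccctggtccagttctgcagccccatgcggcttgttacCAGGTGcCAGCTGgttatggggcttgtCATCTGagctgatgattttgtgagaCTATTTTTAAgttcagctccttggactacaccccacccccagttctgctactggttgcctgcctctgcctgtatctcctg
*Myh4*, chr11:67237562-67237811, plus strand: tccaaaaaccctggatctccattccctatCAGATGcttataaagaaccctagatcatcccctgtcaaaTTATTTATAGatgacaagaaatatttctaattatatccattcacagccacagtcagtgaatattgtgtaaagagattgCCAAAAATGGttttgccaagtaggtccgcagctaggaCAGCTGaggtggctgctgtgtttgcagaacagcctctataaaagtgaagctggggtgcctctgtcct
*Myh2*, chr11:67170777-67171026, plus strand: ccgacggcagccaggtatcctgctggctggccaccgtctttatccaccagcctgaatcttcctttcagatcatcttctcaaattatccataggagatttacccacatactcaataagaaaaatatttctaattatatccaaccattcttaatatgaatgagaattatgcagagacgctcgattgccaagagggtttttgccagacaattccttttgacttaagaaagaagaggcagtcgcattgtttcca
The *Acta1* window held a CArG box from base -73 to -64 before the start, and the *Pgam2* window a MEF2 motif from -80 to -71. The *Myh4* window held both a MEF2 motif from -182 to -173 and a CArG box from -104 to -95. None of these 3 kinds of element was found in the *Myh2* window, which says only that these letters were not there.

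Each library held between 10835070 and 14160301 counts. The targeted gene, *Mkx*, was counted 1825, 1381 and 1685 times in WT 1, 2 and 3 and 620, 589 and 491 times in Mkx-/- 1, 2 and 3, so reads remained in the knockout while the groups did not overlap. Levels below are CPM, each count over the library's total rescaled with edgeR's TMM factors (normalized CPM). Tendon collagens dominated every library: *Col1a2* stood at 257911 ± 29884 CPM (SD, n = 3) in WT and 127464 ± 21623 CPM in Mkx-/-, and the tendon proteoglycan *Fmod* at 16300 ± 853 and 17564 ± 2120 CPM.

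Summed over the 41 muscle genes, transcripts were detected in every library and were more abundant in all 3 Mkx-/- libraries than in any WT library. The summed level was 600.4, 156 and 401 CPM in WT 1, 2 and 3 and 3989, 1947 and 855 CPM in Mkx-/- 1, 2 and 3. They took 0.0602%, 0.0135% and 0.0354% of the counts in WT and 0.402%, 0.219% and 0.0975% in Mkx-/-, shares whose counting error is far smaller than their spread between libraries. The libraries were widely spaced within each genotype, and the nearest pair across genotypes, WT 1 and Mkx-/- 3, lay closer together than Mkx-/- 1 and Mkx-/- 3. In whole tissue, more muscle fibre in a sample and more muscle RNA per cell cannot be told apart.

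The order of the libraries was shared by most members. Mkx-/- 1 was the highest library for 33 of 41 members, against 13.7% of all tested genes, and WT 2 was the lowest for 36 of 41, against 14.1% of all tested genes. The order Mkx-/- 1, 2, 3 from high to low held in 33 of 41, and the order WT 1, 3, 2 also in 33 of 41. The median ratio of Mkx-/- 1 to Mkx-/- 3 was 4.24 over the 41 members, and that of Mkx-/- 3 to WT 1 was 1.66, with 28 members below a ratio of 2. The median ratio of WT 1 to WT 2 was 6.14 over the 30 members with more than 3 counts in WT 2. *Mb*, *Myot*, *Trdn* and *Xirp2* had 0 counts in WT 2, which allows up to 3 counts there by counting error.

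**Figure D1:**
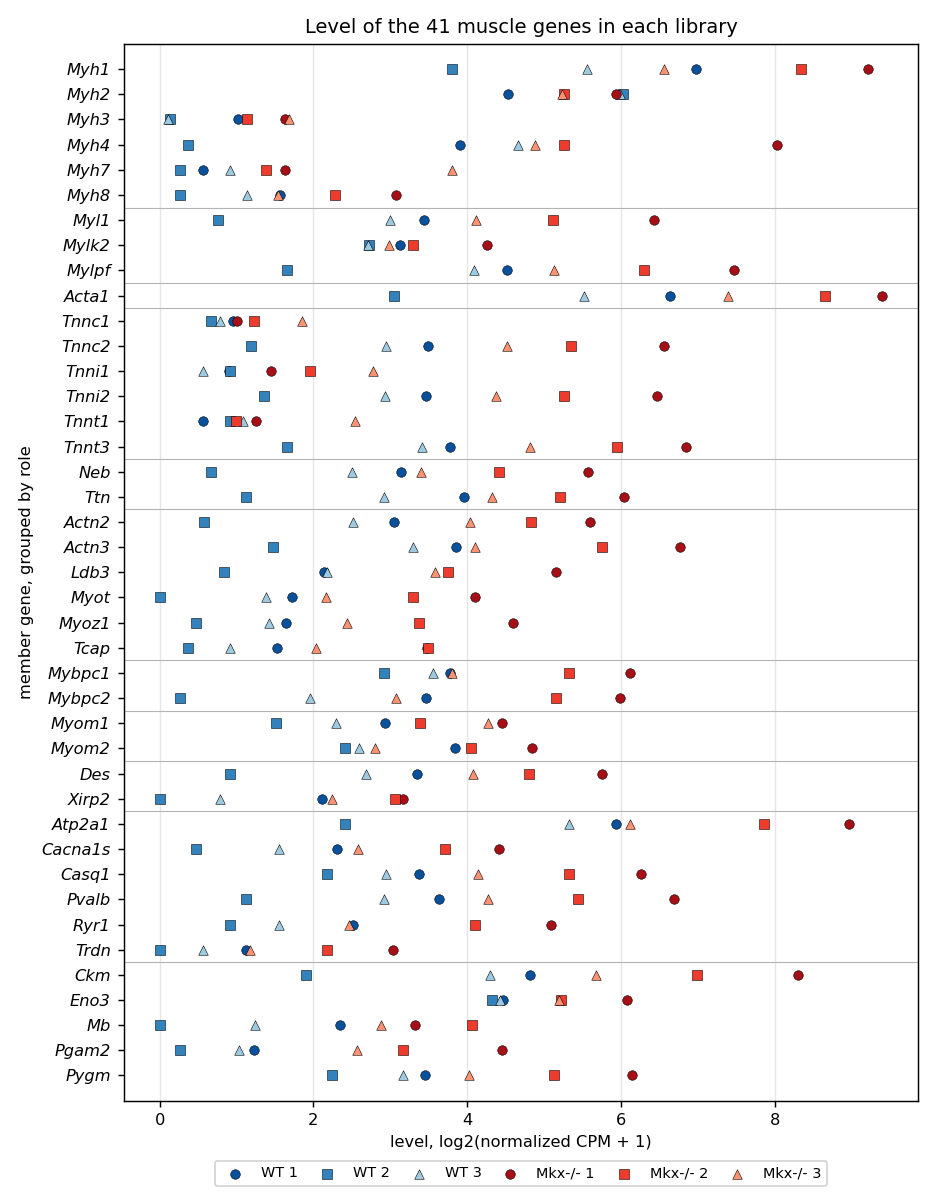
Level of each of the 41 genes in each library, on the axis log2(normalized CPM + 1), with genes grouped by role, WT in blue and Mkx-/- in red. Mkx-/- 1 lies farthest right for 33 genes and WT 2 farthest left for 36. The library farthest right is WT 2 for *Myh2* and Mkx-/- 2 for *Tcap* and *Mb*. It is Mkx-/- 3 for *Myh3*, *Myh7*, *Tnnt1*, *Tnni1* and *Tnnc1*.

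Between genotypes, 40 of the 41 members had a positive log2 fold change (written log2 change below) in Mkx-/- tendons, with a median of 2.75 and a range from -0.15 to 3.63, where 49.5% of all tested genes were positive and the median of all was near 0. All 3 Mkx-/- libraries lay above all 3 WT libraries in 33 members, against 14.6% of all tested genes. By edgeR's quasi-likelihood test with Benjamini-Hochberg adjustment over all genes (a log2 change over 1 at an adjusted p below 0.05), 13 members rose and 0 fell, where 1.89% of all tested genes rose and 1.33% fell. The 13 were *Actn2*, *Tnnt3*, *Tnni1*, *Tnni2*, *Tnnc2*, *Tcap*, *Casq1*, *Myoz1*, *Ldb3*, *Pygm*, *Eno3*, *Pgam2* and *Myom1*, with adjusted p from 0.022 to 0.0467. DESeq2 called 20 members up and 0 down, against 2.38% of its tested genes up. The other 28 members did not pass edgeR's test, although 26 of them had an unadjusted p under 0.05 and 16 an adjusted p under 0.1. The share of all tested genes at these looser thresholds was not taken, so such counts, here and below, have no background beside them. None of the members that fell short had an unadjusted p under 0.05 in the downward direction. The standard errors of the log2 changes were 0.24 to 0.68 for the called members and 0.35 to 1.13 for the rest.

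The number of calls depended on which libraries were included, among the members and over all genes. Without WT 2 or without WT 3 edgeR called 0 members, with 35 and 32 members up at an unadjusted p under 0.05, and without WT 1 it called 28. Without Mkx-/- 1 it called 3, without Mkx-/- 2 it called 4, and without Mkx-/- 3 it called 14. Over all genes, 275 were called up with all libraries. That count was 321, 119 and 103 without WT 1, 2 and 3, and 282, 155 and 177 without Mkx-/- 1, 2 and 3. The direction was steadier. With WT 2 and Mkx-/- 1 both left out, a choice made after seeing the data, edgeR called 0 members, and 16 of all genes up. In that fit 27 members were up at an unadjusted p under 0.05, 40 were positive and the median log2 change was 1.58.

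**Figure D2:**
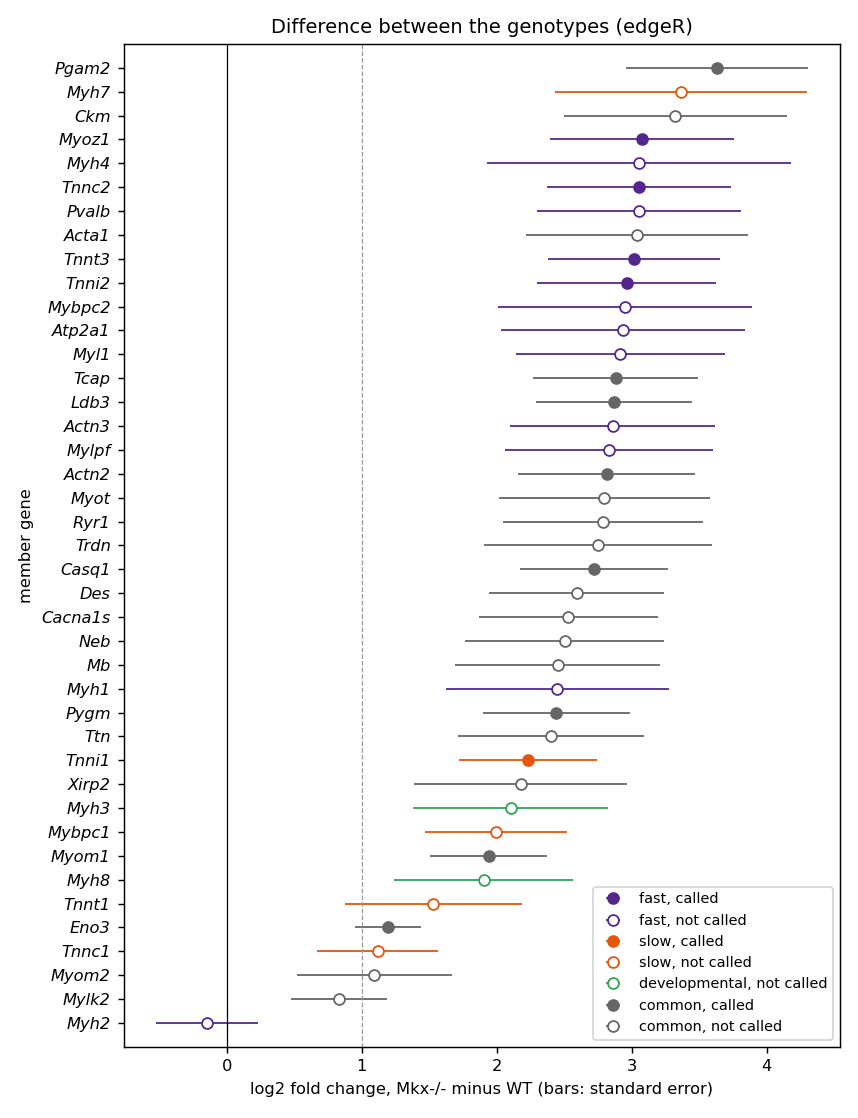
Log2 fold change of Mkx-/- over WT from edgeR's fit for each of the 41 genes, with its standard error as a bar, fibre class by colour, the 13 genes that passed the test as filled points, and a dashed line at the threshold of 1. The estimates run from -0.15 for *Myh2* to 3.63 for *Pgam2*, and most lie between 2 and 3.

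**Figure D3:**
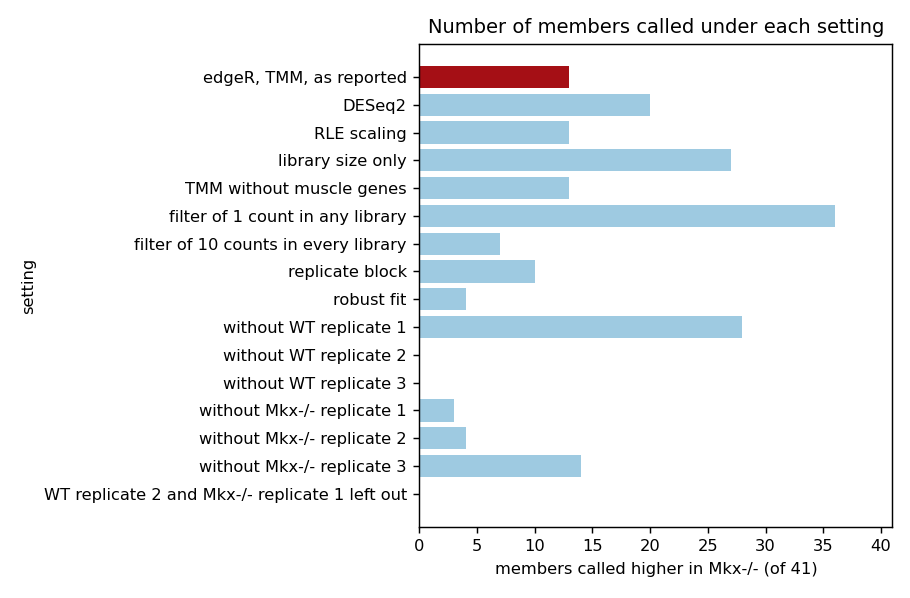
Number of the 41 genes called up under each setting of the analysis. The count was 13 as reported, 20 with DESeq2, 0 without WT 2 or WT 3 and 28 without WT 1. Over all genes, not plotted, it was 275 as reported, 385 with DESeq2, 119 without WT 2, 103 without WT 3 and 321 without WT 1.

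Skeletal α-actin, *Acta1* (mm9 chr8:126415669-126418651, minus strand), is the core of the thin filament. Its levels were 98.7, 7.26 and 44.9 CPM in WT 1, 2 and 3 and 675, 402 and 167 CPM in Mkx-/- 1, 2 and 3. The groups did not overlap, but WT 2 lay far below the other WT libraries, and the log2 change of 3.04 ± 0.82 (SE) did not pass edgeR's test with Benjamini-Hochberg adjustment (adjusted p = 0.0727). Per kilobase of exon, *Acta1* had the highest level of the members with a length, 34.8 CPM per kb in WT and 287 CPM per kb in Mkx-/-, and *Ckm* and *Mylpf* followed in Mkx-/- at 116 and 109 CPM per kb. The order of these 2 in Mkx-/- tendons is not resolved, since their SDs between libraries exceed the gap.

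Of the 6 myosin heavy chain genes, the motors of the thick filament, 0 were called by edgeR, 5 were up at an unadjusted p under 0.05 and DESeq2 called 2. The genes other than *Myh7* form a cluster on mm9 chromosome 11, in the order *Myh3*, *Myh2*, *Myh1*, *Myh4* and *Myh8* along the plus strand. *Myh1*, which encodes the fast 2X chain, was the most abundant of the 6 by counts in all libraries but WT 2 and WT 3. It stood at 125, 13 and 46.3 CPM in WT 1, 2 and 3 and 591, 324 and 93.2 CPM in Mkx-/- 1, 2 and 3. Mkx-/- 3 lay below WT 1, so the groups overlapped (log2 change 2.45 ± 0.83, adjusted p = 0.124 by edgeR's quasi-likelihood test).

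*Myh4*, which encodes the fast 2B chain, was the most uneven of the heavy chains among the knockout libraries. It was at 14.02, 0.294 and 24.3 CPM in WT 1, 2 and 3 and at 260.3, 37.4 and 28.4 CPM in Mkx-/- 1, 2 and 3. Mkx-/- 2 and 3 were close to WT 3, and Mkx-/- 1 stood apart, and the genotypes differed by 3.06 ± 1.13 on the log2 scale (edgeR adjusted p = 0.152). Without Mkx-/- 1 its adjusted p was 0.474.

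*Myh2*, which encodes the fast 2A chain, was the 1 member that was not higher in Mkx-/- tendons. Its levels were 22.2, 64.0 and 62.6 CPM in WT 1, 2 and 3 and 60.4, 37.3 and 36.8 CPM in Mkx-/- 1, 2 and 3. It was highest in WT 2, the library in which 36 members were lowest, and lowest in WT 1. The groups overlapped (log2 change -0.15 ± 0.38, adjusted p = 0.863 by edgeR's quasi-likelihood test), and the sign turned positive when libraries were scaled by total count alone (0.13), without WT 2 (0.064) and without WT 3 (0.042). *Myh2* made up 82.3% of the 792 heavy chain counts in WT 2 (95% Wilson interval 79.5% to 84.8%) and 40.98% of the counts of all 41 members there, whereas in Mkx-/- 1 it made up 6.54% of 10079 heavy chain counts and 1.51% of the members' counts. The interval covers counting error only.

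Reads of these paralogs may not be cleanly divided. In the annotated coding sequences, 20.5% of the 50-base windows of *Myh2* were also present in *Myh1*, 10.4% in *Myh4*, 12.5% in *Myh8* and 28.1% in any other of the 8 genes compared. The counting program and its handling of such reads are not given in the sources used here, so the level of each fast heavy chain is uncertain by an unknown amount. *Myh1* and *Myh2* also lie opposite to genes on the other strand (*Gm10995* over both), and the treatment of strand is not given either.

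*Myh7*, the slow β chain shared with the heart, followed another order. Its counts were 6, 2 and 11 in WT 1, 2 and 3 and 23, 23 and 164 in Mkx-/- 1, 2 and 3. The groups did not overlap, and Mkx-/- 3, the knockout library with the lowest summed level of the members, held most of the counts (log2 change 3.37 ± 0.93, edgeR adjusted p = 0.0758). Without Mkx-/- 3 the log2 change was 1.79. The cardiac paralog *Myh6*, with which *Myh7* shared 23.8% of its windows, had 1, 0 and 0 counts in WT and 3, 3 and 13 in Mkx-/-.

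The developmental chains were near the limit of detection. Embryonic *Myh3* had 13, 1 and 1 counts in WT 1, 2 and 3 and 23, 17 and 28 in Mkx-/- 1, 2 and 3, with no overlap (log2 change 2.1 ± 0.72, edgeR adjusted p = 0.13). Perinatal *Myh8* had 25, 2 and 15 counts in WT and 81, 55 and 24 in Mkx-/-, so that Mkx-/- 3 lay just under WT 1 (log2 change 1.90 ± 0.66, edgeR adjusted p = 0.132). Together these 2 chains made up 1.82%, 0.379% and 0.947% of the heavy chain counts in WT and 1.03%, 1.25% and 2.35% in Mkx-/-, ranges that overlap between the genotypes.

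The fast light chains *Mylpf* (regulatory) and *Myl1* (essential) and the kinase *Mylk2*, which phosphorylates the regulatory light chain, had 0 calls by edgeR and 0 by DESeq2, with all 3 up at an unadjusted p under 0.05. *Mylpf* was at 21.9, 2.16 and 16.0 CPM in WT 1, 2 and 3 and at 177, 78.1 and 34.2 CPM in Mkx-/- 1, 2 and 3, without overlap. *Myl1* had the same order of libraries, from 0.687 CPM in WT 2 to 85.3 CPM in Mkx-/- 1. *Mylk2* differed least, with 7.72, 5.6 and 5.53 CPM in WT and 18.1, 8.78 and 6.90 CPM in Mkx-/-, and its groups overlapped.

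The troponins, the calcium switch of the thin filament, had 4 of 6 members called. All 3 fast subunits rose. Fast troponin T, *Tnnt3*, the subunit that binds tropomyosin, was at 12.8, 2.16 and 9.61 CPM in WT 1, 2 and 3 and at 114, 60.9 and 27.2 CPM in Mkx-/- 1, 2 and 3. The lowest knockout library was above the highest WT library by a ratio of 2.13 (log2 change 3.02 ± 0.64, adjusted p = 0.035 by edgeR's quasi-likelihood test). The inhibitory subunit *Tnni2* rose from 6.07 ± 4.25 to 48.4 ± 35.4 CPM (SD, n = 3 each) and the calcium-binding subunit *Tnnc2* from 6.08 ± 4.52 to 51.7 ± 37.0 CPM, both with an edgeR adjusted p of 0.0417.

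The slow troponins were counted 6 to 74 times in a library. Slow troponin I, *Tnni1*, had 11, 9 and 6 counts in WT 1, 2 and 3 and 19, 41 and 74 in Mkx-/- 1, 2 and 3. Its groups did not overlap and it rose by a log2 change of 2.23 ± 0.51 (edgeR adjusted p = 0.044), a call that was lost when any 1 library but Mkx-/- 1 was left out (adjusted p from 0.0561 to 0.139). The log2 change was lowest, 1.64, without Mkx-/- 3. Slow troponin T, *Tnnt1*, had 6, 9 and 14 counts in WT and 15, 14 and 61 in Mkx-/-, and its log2 change of 1.53 became 0.50 without Mkx-/- 3. Slow troponin C, *Tnnc1*, which the heart also uses, had 12, 6 and 9 counts in WT and 11, 19 and 33 in Mkx-/-. Neither of the latter passed the test, and in both of them Mkx-/- 3 was again the highest library.

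Z-disc proteins anchor the thin filaments, and 4 of the 6 Z-disc members rose. The sarcomeric α-actinin *Actn2*, which crosslinks actin in all fibres, was at 7.25, 0.491 and 4.73 CPM in WT 1, 2 and 3 and at 47.5, 27.4 and 15.4 CPM in Mkx-/- 1, 2 and 3 (log2 change 2.81 ± 0.65, edgeR adjusted p = 0.0467). The fast-fibre α-actinin *Actn3* had a similar log2 change of 2.86 with a larger SE of 0.76 and did not pass (edgeR adjusted p = 0.0697). *Ldb3*, an adaptor that binds α-actinin, rose by a log2 change of 2.87 ± 0.58, and its Mkx-/- 3 level of 11.02 CPM was 3.25 times that of WT 1. *Tcap*, the telethonin that caps titin, rose from 1.02 ± 0.81 to 7.84 ± 4.11 CPM, and *Myoz1*, a calcineurin-binding protein of fast fibres, from 1.40 ± 0.90 to 12.3 ± 9.72 CPM. *Myot*, which crosslinks actin at the Z-disc, had 29, 0 and 20 counts in WT and 176, 126 and 44 in Mkx-/- and did not pass.

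The giant proteins titin (*Ttn*), the spring of the sarcomere, and nebulin (*Neb*), which runs along the thin filament, did not pass edgeR's test or DESeq2's, with both up at an unadjusted p under 0.05. *Ttn* was at 14.5, 1.18 and 6.57 CPM in WT 1, 2 and 3 and at 65.1, 36.0 and 19.1 CPM in Mkx-/- 1, 2 and 3, without overlap. At the M-band, where thick filaments are joined, *Myom1* rose by a log2 change of 1.94 ± 0.43 (edgeR adjusted p = 0.0415). It was at 6.62, 1.87 and 3.92 CPM in WT and 20.9, 9.41 and 18.3 CPM in Mkx-/-, so that Mkx-/- 3 nearly reached Mkx-/- 1. Its paralog *Myom2* overlapped between genotypes, with Mkx-/- 3 at 5.95 CPM below WT 1 at 13.4 CPM.

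Myosin binding protein C, which tunes crossbridge formation, was measured as slow *Mybpc1* and fast *Mybpc2*. *Mybpc1* was at 12.7, 6.58 and 10.7 CPM in WT and 68.6, 39.1 and 13 CPM in Mkx-/-, and it was the 1 slow member with the library order of the fast genes. *Mybpc2* was at 10.01, 0.196 and 2.88 CPM in WT and 62.7, 34.5 and 7.45 CPM in Mkx-/-, with overlap. Neither passed edgeR's test, while DESeq2 called 1 of the 2. Desmin (*Des*), the intermediate filament that links myofibrils, and *Xirp2*, an actin-binding protein of muscle attachment sites, both separated the genotypes without passing either test, and both had an unadjusted p under 0.05.

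Among the 6 excitation-contraction genes, 1 was called by edgeR and 4 by DESeq2. Calsequestrin 1, *Casq1*, which stores calcium in the sarcoplasmic reticulum, was at 9.38, 3.53 and 6.73 CPM in WT 1, 2 and 3 and at 75.6, 39.2 and 16.6 CPM in Mkx-/- 1, 2 and 3. Its groups did not overlap and its log2 change was 2.72 ± 0.55 (edgeR adjusted p = 0.0287). The calcium pump of fast fibres, *Atp2a1*, had the highest normalized CPM of this role, 60.3, 4.32 and 39.3 in WT and 498, 232 and 68.3 in Mkx-/-. Mkx-/- 3 exceeded WT 1 by a ratio of only 1.13, and the log2 change of 2.93 ± 0.90 did not pass (edgeR adjusted p = 0.0999).

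The voltage sensor *Cacna1s*, the release channel *Ryr1*, its partner triadin (*Trdn*) and the calcium buffer parvalbumin (*Pvalb*) had log2 changes from 2.53 to 3.05 and did not pass edgeR's test, while DESeq2 called *Ryr1*, *Trdn* and *Pvalb*. *Ryr1* was the 1 gene of this role whose groups overlapped, since Mkx-/- 3 at 4.52 CPM lay just under WT 1 at 4.73 CPM. *Pvalb* was at 11.4, 1.18 and 6.57 CPM in WT and 102, 42.4 and 18.3 CPM in Mkx-/-, without overlap.

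Of the 5 genes of energy supply, 3 rose. Muscle phosphoglycerate mutase, *Pgam2*, an enzyme of glycolysis, had the largest change of all members. It was at 1.34, 0.196 and 1.04 CPM in WT 1, 2 and 3 and at 20.9, 7.94 and 4.92 CPM in Mkx-/- 1, 2 and 3, so the lowest knockout library exceeded the highest WT library by a ratio of 3.67 (log2 change 3.63 ± 0.67, edgeR adjusted p = 0.022). Muscle glycogen phosphorylase, *Pygm*, which releases glucose from glycogen, rose by a log2 change of 2.44 ± 0.55 (edgeR adjusted p = 0.0417).

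β-Enolase, *Eno3*, was the most even member in WT, at 21.1, 19.0 and 20.4 CPM, and stood at 66.9, 36.2 and 35.8 CPM in Mkx-/-. WT 2 lay close to the other WT libraries here, and *Eno3* made up 12.2% of the members' counts in that library. It rose by a log2 change of 1.19 ± 0.24 (edgeR adjusted p = 0.0313), the smallest change of the 13 called members with the smallest SE. Creatine kinase (*Ckm*), which buffers ATP, had levels of 27.2, 2.75 and 18.6 CPM in WT and 315, 126 and 50.1 CPM in Mkx-/- and fell just short (log2 change 3.32 ± 0.83, edgeR adjusted p = 0.0573). Myoglobin (*Mb*), the oxygen store, had 52, 0 and 17 counts in WT and 98, 223 and 80 in Mkx-/-, with Mkx-/- 2 highest.

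Grouped by fibre class, 4 of 13 fast, 1 of 5 slow, 0 of 2 developmental and 8 of 21 common members were called by edgeR, where both developmental members were up at an unadjusted p under 0.05 and DESeq2 called 1 of them. The median log2 changes were 2.95 for fast, 2.0 for slow and 2.59 for common members, where that of all genes was near 0. All 13 fast members stood in the order Mkx-/- 1, 2, 3 from high to low, whereas 4 of the 5 slow members were highest in Mkx-/- 3, which was the highest library for 20.0% of all tested genes. The fast members made up 56.8%, 52.4% and 45.9% of the members' counts in Mkx-/- 1, 2 and 3, and the slow members 1.88%, 2.36% and 4.599%. In WT 1, 2 and 3 the slow share was 2.57%, 5.85% and 3.47%, a range that overlaps that of the knockout. *Mybpc1* alone gave most of the slow counts in every library but Mkx-/- 3. It held 161 of 196, 67 of 93 and 134 of 174 in WT 1, 2 and 3. In Mkx-/- 1, 2 and 3 it held 749 of 817, 557 of 654 and 164 of 496. The slow share therefore says little about *Myh7* and the slow troponins.

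Whether the paralogs in use differed between genotypes was asked with the log2 ratio of counts within a library, for 10 pairs, by an exact two-sided permutation test. With 3 against 3 libraries the smallest p this test can give is 0.1. Only *Myh2* over *Myh4* reached it: the log2 ratio was 0.66, 7.54 and 1.36 in WT 1, 2 and 3 and -2.11, -0.01 and 0.37 in Mkx-/- 1, 2 and 3. Every knockout library lay below every WT library, by 3.77 in the means, but the gap between WT 1 and Mkx-/- 3 was small, and the Benjamini-Hochberg adjusted p over the 10 pairs was 0.6. WT 2, where *Myh4* had 3 counts, set much of that mean.

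The slow-to-fast ratios overlapped between the genotypes. For troponin T (*Tnnt1* over *Tnnt3*) the log2 ratio was -2.98 ± 1.70 in WT and -4.90 ± 2.11 in Mkx-/- (SD, n = 3 each, exact permutation p = 0.3). For troponin I it differed by -1.03 (exact permutation p = 0.5) and for troponin C by -2.26 (exact permutation p = 0.3), while for *Myh7* over *Myh4* it differed by -0.85 (exact permutation p = 0.7). For *Mybpc1* over *Mybpc2* the difference was -1.96 (exact permutation p = 0.2). All of these were in the direction of fewer slow counts per fast count in Mkx-/-, as far as the means go, and all had an adjusted p of at least 0.6. The *Myh7* ratio changed sign without WT 2 (0.57) or without Mkx-/- 1 (0.51).

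Within the knockout the slow shares differed between libraries by more than counting error. *Tnni1* made up 1.94% (95% Wilson interval 1.24% to 3.01%), 7.16% (5.32% to 9.56%) and 22.8% (18.6% to 27.7%) of the *Tnni1* and *Tnni2* counts in Mkx-/- 1, 2 and 3. *Tnnt1* made up 1.19%, 1.59% and 15.1% of the troponin T counts in these libraries, and *Myh7* 0.228%, 0.398% and 7.41% of the 6 heavy chains. WT 2, with few muscle counts, also had high slow shares, 36.0% for *Tnni1* of 25 counts and 29.0% for *Tnnt1* of 31 counts, with intervals of 20.2% to 55.5% and 16.1% to 46.6%. The coding sequences of the troponin pairs shared 0 windows of 50 bases, so these shares do not depend on how shared reads of that length were divided.

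**Figure D4:**
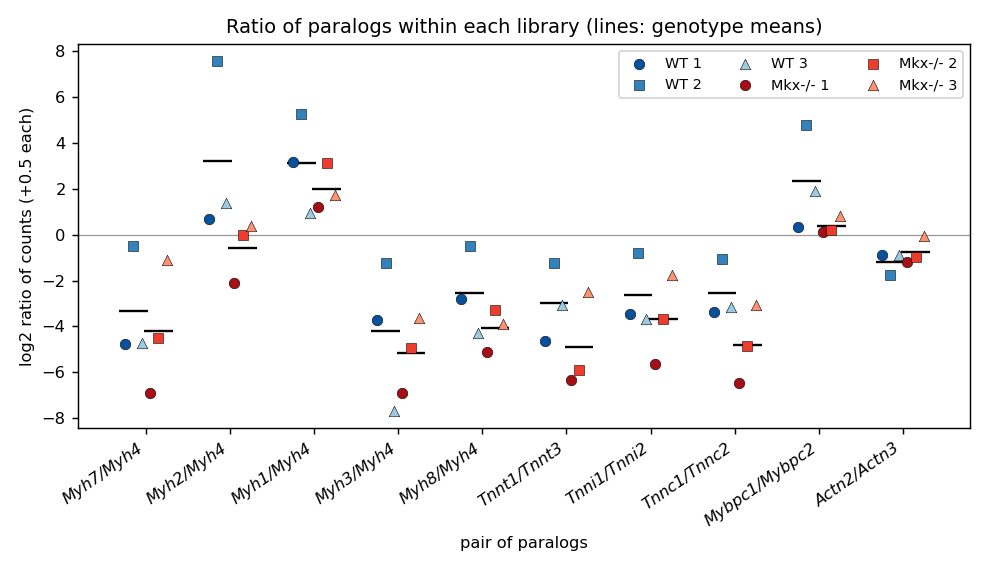
Log2 ratio of counts of paired paralogs within each library, with a pseudocount of 0.5, for the 10 pairs, WT in blue and Mkx-/- in red, with lines at the genotype means. The genotypes separate only for *Myh2* over *Myh4*, and Mkx-/- 3 has the highest knockout ratio for *Myh7* over *Myh4* and for all 3 slow-to-fast troponin pairs.

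Mkx-/- 3 also differed in other muscle transcripts. The smooth muscle list, of which 7 genes were in the table and 4 were tested, summed to 163, 259 and 252 CPM in WT 1, 2 and 3 and to 246, 275 and 1148 CPM in Mkx-/- 1, 2 and 3. Smooth muscle myosin, *Myh11*, had 25, 27 and 33 counts in WT and 30, 39 and 2548 in Mkx-/-. Of the tested genes edgeR and DESeq2 called 0, and 3 were up at an unadjusted p under 0.05. The 8 endothelial markers summed to 49.3 to 67.4 CPM in WT and 64.0, 74.6 and 122 CPM in Mkx-/- 1, 2 and 3. Of these 8, 7 were positive, with a median log2 change of 0.81 over the list. By edgeR 0 were called and by DESeq2 2, and 5 were up at an unadjusted p under 0.05. The part of these cells in the slow-member levels of Mkx-/- 3 was not tested. Of the cardiac list, *Nppa* and *Nppb* had 0 counts in every library and 1 of 8 genes was tested. Among slow and cardiac muscle genes of any list, *Myl2* (0 to 6 counts elsewhere, 38 in Mkx-/- 3), *Casq2* (11 to 23 elsewhere, 113 in Mkx-/- 3) and *Ryr2* (0 to 3 elsewhere, 14 in Mkx-/- 3), singled out after their values were seen, were highest in Mkx-/- 3. Other genes of this kind did not share this order: *Actc1*, *Csrp3*, *Myoz2* and *Tnni3* were highest in Mkx-/- 1 and *Atp2a2* in WT 1, and *Myl7* and *Mybpc3* had 0 counts in Mkx-/- 3.

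Markers of other cell types were summed in the same way. All 7 Schwann cell markers were positive, with a median log2 change of 0.97 and summed levels of 8115 to 10730 CPM in WT and 12597 to 23372 CPM in Mkx-/-. Of these edgeR called 0 and DESeq2 called 1, and all 7 had an unadjusted p under 0.05. Their order among the knockout libraries, lowest in Mkx-/- 1 and highest in Mkx-/- 3, was the reverse of that of the muscle members. The 6 leukocyte markers were all negative, with a median of -0.59, and 1 of them, *Emr1* (F4/80 of macrophages), fell. Keratinocyte markers summed to 1.02 to 8.34 CPM in WT and 9.84 to 13.6 CPM in Mkx-/-, erythroid markers to 41.4 to 179.6 CPM and 23.7 to 48.4 CPM, and adipocyte markers to 2.24 to 3.62 CPM and 2.29 to 4.005 CPM. The part of these cell types in the muscle levels was not tested.

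Of 102 further genes of the muscle apparatus in the table, 67 were tested, 12 rose and 1 fell. Of all tested genes 1.89% rose and 1.33% fell, the shares against which the lists below are to be read. In the sarcomere list, 18 of 26 were tested and 5 rose (*Tpm2*, *Tmod4*, *Myoz2*, *Klhl40* and *Synpo2l*), with all 18 positive and a median log2 change of 2.29. A gene of these lists could pass the filter on low counts through its Mkx-/- libraries alone. *Myoz2* and *Klhl40* did so, with at most 0.473 and 0.709 CPM in a WT library. The filter therefore favoured positive changes among the tested genes, and the signs are no independent support. β-Tropomyosin, *Tpm2*, which lies along the thin filament, rose from 45.6 ± 3.59 to 144 ± 42.8 CPM (log2 change 1.66 ± 0.22, edgeR adjusted p = 0.00577) and is also made by fibroblasts. The small heat shock protein *Cryab* had the highest level of the list. In the triad and membrane list 2 of 15 tested genes rose, the junctophilin *Jph2*, which ties the membranes of the triad together, and *Hrc*, a calcium-binding protein of the sarcoplasmic reticulum.

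In the energy list 3 of 13 tested genes rose. The insulin-responsive glucose transporter *Slc2a4* had 15, 11 and 16 counts in WT 1, 2 and 3 and 59, 78 and 91 in Mkx-/- 1, 2 and 3 (log2 change 2.34 ± 0.24, edgeR adjusted p = 0.00216), so its libraries were even within each genotype, unlike those of most members. *Ampd1*, the AMP deaminase of muscle, and *Cox6a2*, a muscle subunit of cytochrome c oxidase, were the others that rose. In the neuromuscular junction list 1 of 6 rose, the acetylcholine receptor subunit *Chrnb1*, and 1 fell, *Colq*, the collagen tail of acetylcholinesterase.

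The MyoD family regulators were at or near 0. *Myod1* had 0, 1 and 0 counts in WT and 6, 5 and 1 in Mkx-/-, and *Myf6*, the regulator of mature fibres, 1, 0 and 1 counts in WT and 13, 9 and 2 in Mkx-/-. Of 11 regulators 3 were tested, *Mef2a*, *Mef2c* and *Mef2d*, of which edgeR and DESeq2 called 0 and 0 had an unadjusted p under 0.05. The embryonic and satellite cell regulators *Myf5* and *Pax7* were counted at most 1 time in any library. In the protein turnover list 2 of 8 genes were tested, 0 were called by edgeR and 1 was up at an unadjusted p under 0.05, while DESeq2 called 4 of the 8.

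**Figure D5:**
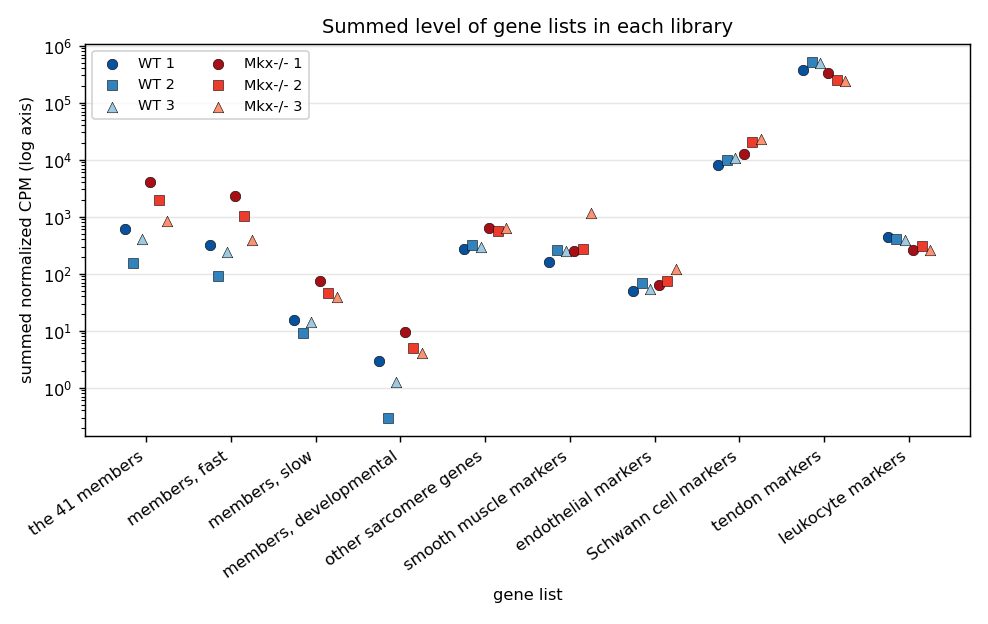
Summed normalized CPM of gene lists in each library, on a log axis, WT in blue and Mkx-/- in red. The 41 members separate the genotypes (156 to 600 against 855 to 3989 CPM), and the smooth muscle list stands at 1148 CPM in Mkx-/- 3 against at most 275 CPM elsewhere.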

How the data were processed

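Total RNA of tail tendon from WT and Mkx-/- mice was made into libraries with the Ion Total RNA-Seq Kit and sequenced on the Ion Proton. The authors removed adaptors and low-quality reads, aligned to mm9 with MapSplice and deposited the unnormalized counts of reads for each symbol. The counting program, annotation and strand setting are not given in the sources used here. All 6 columns matched samples by title, and 0 columns were left unused. Libraries held 10835070 to 14160301 counts.

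Counts were scaled by TMM, filtered with filterByExpr and fitted on genotype with edgeR 4.0.16 (quasi-likelihood, prior count 0.125) in R 4.3.3, with Benjamini-Hochberg adjustment over 14550 genes. Calls needed an adjusted p below 0.05 together with a log2 change beyond 1 in either direction. Chi-square per degree of freedom between replicates was 7.59 to 36.4, so no library was a repeat. The statistics were tested on simulated data, where genes varied independently and 200 had a log2 change of 2 in either direction. By edgeR 190 of these were recovered with 8 false calls, and by DESeq2 190 with 13. Members that move together by library were not simulated, so the result does not speak to the reliability of their calls. Ratios of paralogs used a pseudocount of 0.5 and the exact permutation test in scipy 1.17.1. Gene lengths and windows came from GENCODE M1 on mm9, where *Tnnc1* has more than 1 record and so no length.

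The members and all lists were chosen with earlier results of these data known, and fibre classes were assigned by hand. The text names all members, *Mkx*, and in each other list at most the 5 genes with the smallest p, the 3 with the highest level and those at 0 throughout. *Myl2*, *Casq2*, *Actc1*, *Csrp3*, *Myl7*, *Mybpc3*, *Klhl40*, *Myod1*, *Myf5*, *Myf6* and *Pax7* lie outside this rule and were added once their values had been seen.

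The alternatives were DESeq2 1.42.0, RLE scaling, library size only, TMM without muscle genes, filters of 1 count in any library and 10 counts in every library, a robust fit, no fold threshold, the replicate number as a block, each library left out, and WT 2 with Mkx-/- 1 left out. The last was chosen after seeing the data. Single-cell data were not analysed here. A result withheld for evaluation is not reported here.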

Additional observations from a re-analysis of the deposited data

How the results depend on the processing

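The count of members called up was 13. It was 20 with DESeq2, 27 with library size only (which moved the median of all genes to 0.25), 36 with a filter of 1 count in any library, 7 with a filter of 10 counts in every library, where 19 members were tested, and 4 with a robust fit. It ranged from 0 to 28 when 1 replicate was left out, and was 0 without WT 2 and Mkx-/- 1 together. It was 13 with RLE scaling, TMM without muscle genes or no fold threshold. The count up over all genes moved as well. It was 275 in the main fit, 385 with DESeq2, 711 with library size only and 254 with a robust fit. With the filters of 1 and of 10 counts it was 541 and 209. It ranged from 103 to 321 without 1 replicate and was 16 without WT 2 and Mkx-/- 1 together. In the other muscle lists the count of 12 became 26, 22, 35 and 3 with DESeq2, library size only and the filters of 1 and of 10 counts, ranged from 2 to 19 without 1 replicate, and was 0 without WT 2 and Mkx-/- 1, with 23 genes up at an unadjusted p under 0.05. The cause of these shifts was not tested. Of 593 recomputed member changes 590 kept their direction. The 3 exceptions were all *Myh2*, at 0.13 with library size only, 0.064 without WT 2 and 0.042 without WT 3 (range without 1 replicate -0.50 to 0.064). Of 80 recomputed ratios 3 changed sign, *Myh7*/*Myh4* to 0.57 without WT 2 and 0.51 without Mkx-/- 1, and *Myh3*/*Myh4* to 0.53 without WT 2 (ranges without 1 replicate -2.38 to 0.57 and -2.69 to 0.53). Replicate numbers share only a label: deviations of same-numbered libraries correlated by -0.02, -0.26 and 0.33, and the highest correlation, 0.48, joined WT 1 and Mkx-/- 2. With the replicate block 10 members and 8 genes of the other muscle lists were called up, and 195 of all genes. Genes with under 30 counts in a library, among them *Myh3*, *Myh8* and the slow troponins in WT, carry a large counting error.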
